A study of Mus musculus with 2 samples.

Results

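The 285 probes described here read at least 8-fold brighter in epidermis than in dermis of newborn mouse skin, out of 20868 named probes on the array (1.37%). They were chosen by T, the log2 level in epidermis minus that in dermis, averaged over both genotypes. A level is the background-subtracted signal of a spot, set to 50 where it was lower, on the log2 scale and relative to the median of all probe spots in the same array and dye. T reached 3 for 335 probes (1.61% of all), and 50 of these were left out because their epidermal level differed by 2-fold or more between the genotypes. T and the bound on the epidermal ratio thus come from the measured values and are given as a description. Probes carry the manufacturer's numbers and none matched the gene table at hand, so members are named by number, the tissue labels were not checked against marker genes, and Casp8 itself was not looked up.

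The study compared Casp-8 F/– K5-Cre with Casp-8 F/+ K5-Cre mice at postnatal day 3, on 1 two-colour array for epidermis and 1 for dermis. On both arrays the F/+ RNA carried the dye Cy3 and the F/– RNA the dye Cy5, without a dye swap, so dye and genotype cannot be told apart on either array. Each channel held a pool of 3 mice, except the F/– dermis with 2, after dispase (2.4 U/ml at 4 °C) had split the skin into its layers. All animals carried K5-Cre, Cre recombinase under the keratin 5 promoter, so the F/+ controls expressed Cre as well. With 1 array per tissue there is no test and no p-value, array and tissue cannot be told apart, and the only measurable error is that between spots of one probe on one array, which is technical.

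The epidermis consists mainly of keratinocytes, which divide in the basal layer, move outward and turn into cornified cells that form the skin barrier, while the dermis beneath holds fibroblasts, vessels, nerves and the lower parts of hair follicles. Keratin 5 is made by basal keratinocytes, and by convention F stands for a floxed allele, which Cre can delete. Caspase-8 is a protease of the death receptor pathway that starts apoptosis and restrains necroptosis, and its loss in keratinocytes is known to cause skin inflammation. In bulk RNA, fewer cells of a type and less RNA per cell cannot be told apart.

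The members were bright in epidermis and of middling brightness in dermis. Their median signals in epidermis were 8038 in F/+ and 5185 in F/–, against 530.1 and 365.1 in dermis. In epidermis 246 of the 285 lay among the brightest 25% of all probes and 168 among the brightest 10%. In dermis they spread up to percentile 90.9 of all probes, with 54, 83, 107 and 41 members from the dimmest to the brightest 25%, and their median stood at percentile 51.8 of all probes. Brightness also depends on the probe, so these ranks do not order transcripts by abundance. The rule itself favours probes that are bright in epidermis. No dermal level can fall below the floor, so T reaches its limit only with an epidermal level near or above the array median. The lowest member stood at percentile 49.9 of all probes in epidermis. The brightness of the members in epidermis is thus partly set by the rule.

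Most members were above background in dermis, as most probes on the array were, so "restricted" describes a ratio and not absence. Of 285 members, 283 exceeded the signal that 95% of negative control spots stayed below in the F/+ dermis and 282 in the F/– dermis. Of all probes, 97.9% and 96.8% did so. The dermal level was at a median 8.08% of the epidermal level in F/+ and 7.31% in F/–. At the floor of 50 were 2 members in the F/+ dermis and 15 in the F/– dermis, and for these T is a lower bound. The members made up 6.83% and 6.28% of the summed probe signal in F/+ and F/– epidermis, and 0.627% and 0.518% in dermis. Across members, epidermal and dermal levels ranked alike (Spearman's rho 0.82 over 285 probes, which share both arrays and the range set by T), as they did over all 20868 probes (rho 0.87).

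**Figure D1:**
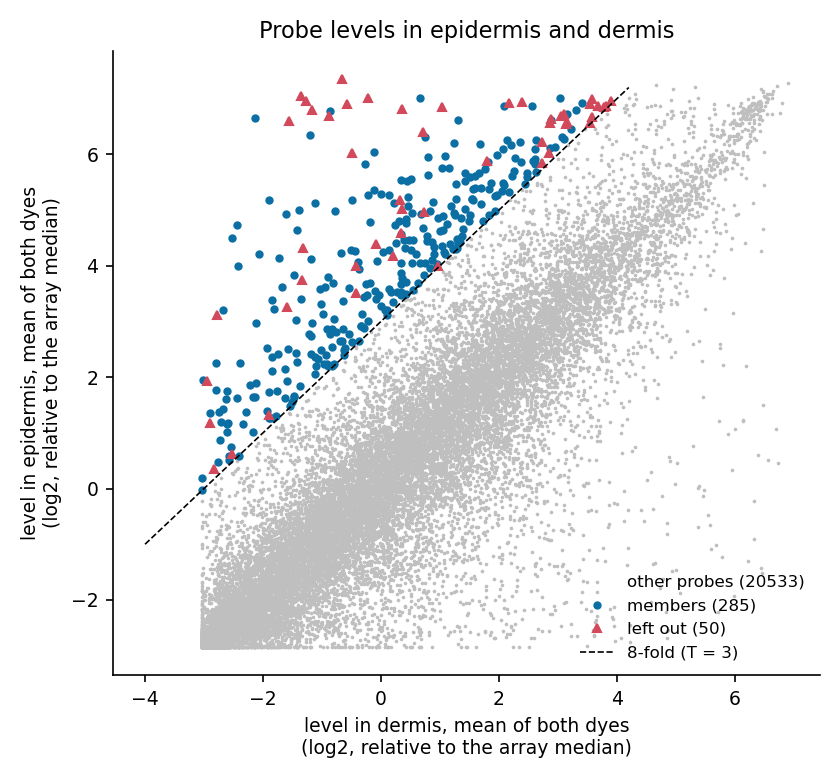
Level of each probe in epidermis (vertical axis) against dermis (horizontal axis), each the mean of both dyes on the log2 scale relative to the array median; blue points are the 285 members, red triangles the 50 probes left out for their epidermal ratio, grey points the other 20533 probes. All members lie above the dashed 8-fold line by the rule, and their dermal levels extend up to 3.41.

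The tissue difference had a median T of 3.67 (12.7-fold), with quartiles of 3.27 and 4.25. Most members sat near the limit: 181 were 8 to 16-fold, 68 were 16 to 32-fold, 21 were 32 to 64-fold and 15 were 64-fold or more brighter in epidermis. The members just inside the limit were A_51_P166360, A_51_P510239, A_51_P353772 and A_51_P428115, with T from 3.007 to 3.018. Just outside stood A_51_P164835, A_51_P304397, A_51_P194415 and A_51_P428555, with T from 2.989 to 2.998. The pooled SD of T between spots was 0.25 over 50 probes printed 10 times, so these probes on both sides of the limit differed by less than spot noise.

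The highest T was that of A_51_P248986. Its signals were 52082 in F/+ epidermis, 25173 in F/– epidermis, 161 in F/+ dermis and 53.8 in F/– dermis. The tissue difference was 356-fold in F/+ and 557-fold in F/–, and the F/– dermal signal stood just above the floor. A_51_P518907 followed with 47307 and 32625 in epidermis and 312 and 162 in dermis, or 167-fold in F/+ and 239-fold in F/–. The signals of A_51_P143082 were 27759 and 30586 in epidermis and 221 and 145 in dermis. These 3 probes belonged to the brightest 2% of the epidermis array, as did 40 members in all.

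A further 3 probes with T above 7 were dimmer in epidermis. A_51_P495747 read 14258 and 6449 in F/+ and F/– epidermis, and 106 and 54.6 in dermis. A_51_P172151 read 20233 and 8462 in epidermis, and 137 and 88.3 in dermis. A_51_P495719 read 11225 and 5802 in epidermis, and 92.2 and 55.6 in dermis. In each of them both dermal channels were far below both epidermal channels, and the dermal F/– signals of A_51_P495747 and A_51_P495719 stood close to the floor.

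**Figure D2:**
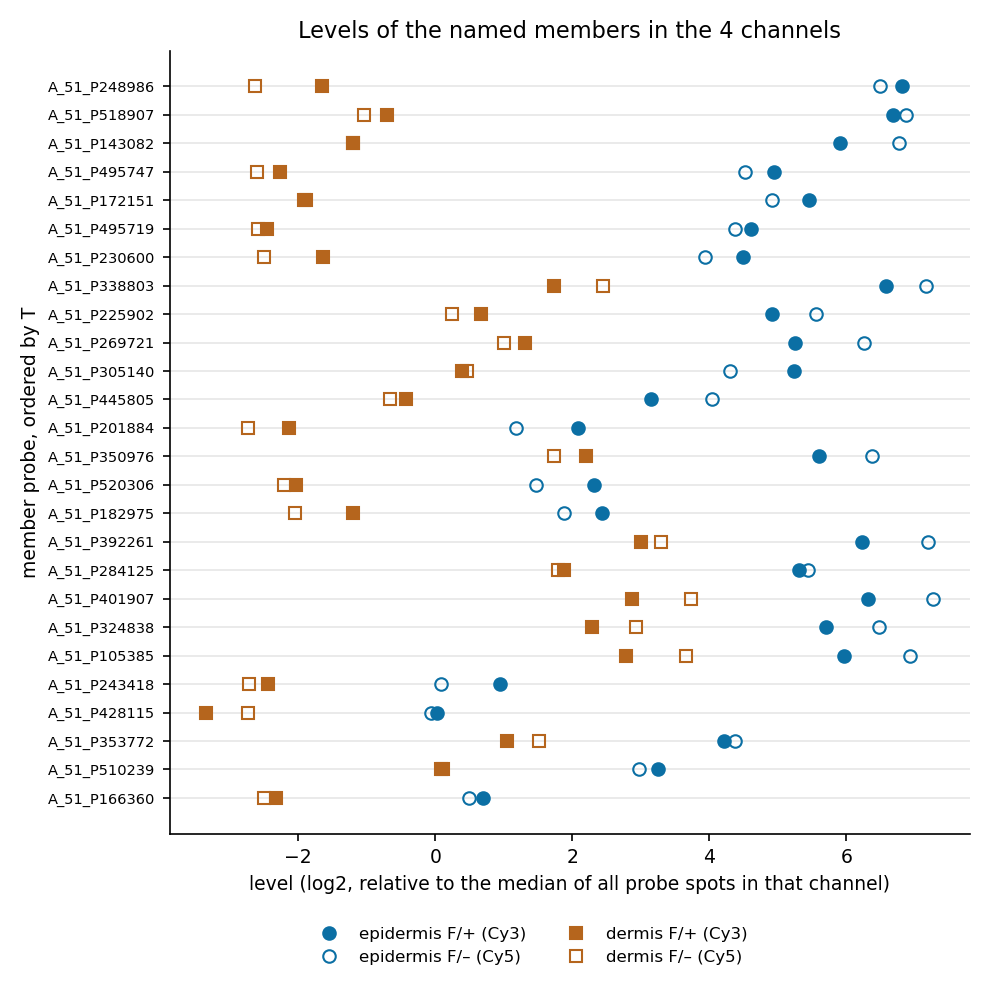
Levels of the named members in all 4 channels, on the log2 scale relative to the median of all probe spots in that channel, ordered by T from top to bottom; circles are epidermis, squares dermis, filled symbols F/+ (Cy3) and open symbols F/– (Cy5). The rule sets the distance between the tissue means and bounds the epidermal ratio, but not the dermal one. For every member shown the epidermal and dermal channels do not overlap, and the filled and open symbols of one tissue lie within 1 log2 unit of each other.

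Within F/+ the tissue difference of the members had a median of 3.63 (12.4-fold), and within F/– of 3.77 (13.7-fold). The rule largely fixes how near these medians are, since it averages both genotypes and removes probes with a large epidermal ratio. The 50 probes left out had medians of 3.77 within F/+ and 4.56 within F/–. Each of these compares 2 channels of the same dye, so a dye preference drops out only if it is equal on both arrays and at every brightness. A preference that changes with brightness would remain, because the members were brighter in epidermis. Whether it was equal was not tested. The difference reached 8-fold in both genotypes for 236 members, in F/+ alone for 24 and in F/– alone for 25.

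The genotype ratio in epidermis, F/– over F/+, had no stable sign across the members. Its median was 0.16 on the log2 scale with median centring, where all probes had 0.052, and 173 members were above 0 and 112 below. After loess normalization, which removes a trend of the ratio with brightness, the median was -0.011, with 141 members above 0 and 144 below. In the authors' deposited table it was -0.13, with 104 above 0 and 179 below among 283 members that have a value there. The direction for the members as a set thus flips with the normalization, and the rule holds each median-centred ratio within 2-fold, a size that 1.53% of all probes passed upward and 0.417% downward.

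The normalizations parted most at the bright end. In the 71 members brightest in epidermis the median was 0.43 with median centring, 0.085 with loess and -0.34 in the authors' deposited table. In the 72 dimmest it was -0.064, -0.087 and -0.095. Counts of members past 1.5-fold moved in the same way. With median centring 47 members were higher in F/– (16.5%, against a background of 9.35% of all probes) and 15 lower (5.26%, against 2.15%). That 9.35% includes probes at the floor in both dyes, which pass 1.5-fold upward by construction and were not counted apart. No member was at the floor in epidermis. With loess 12 were higher (4.21%, background 2.5%) and 30 lower (10.5%, background 1.85%). In the authors' deposited table the counts were 7 higher (2.47%, background 1.96%) and 45 lower (15.9%, background 2.96%). Folds from that table rest on an inferred log10 scale, which was not borne out in the brightest of 10 intensity classes. No member was 2-fold higher by loess (background 0.934%) or in the authors' deposited table (0.696%), and 2 (0.302%) and 5 (0.494%) were 2-fold lower.

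**Figure D3:**
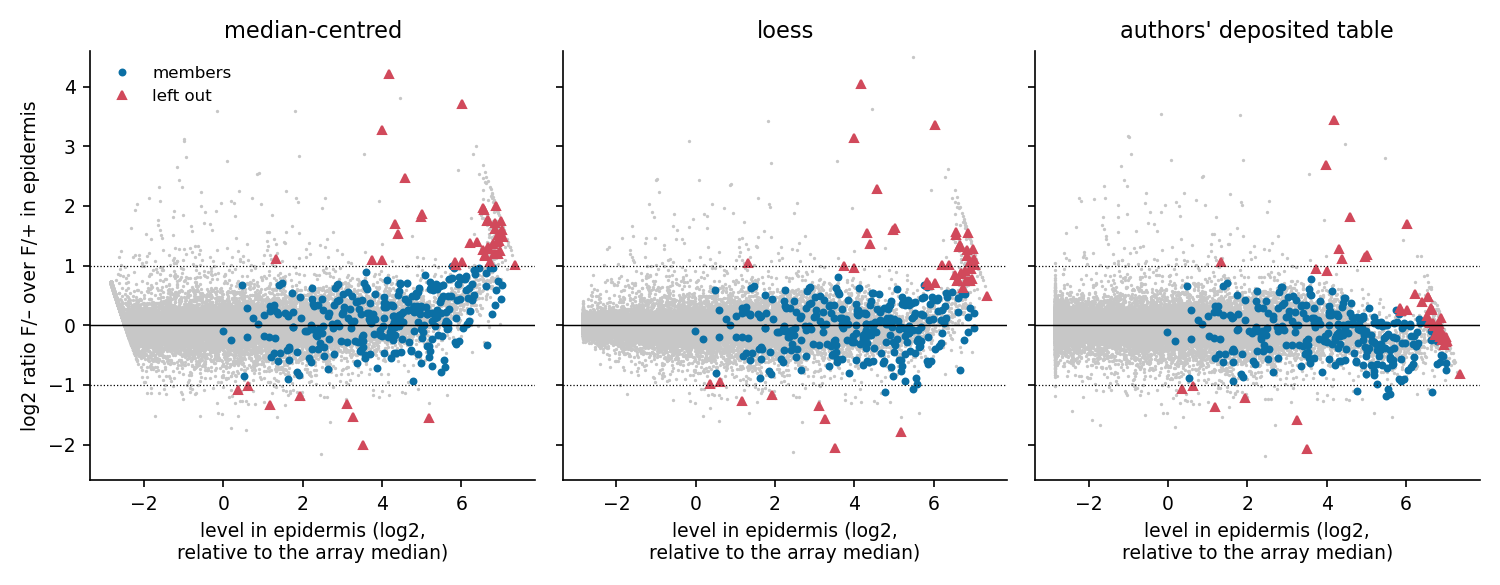
Epidermal log2 ratio of F/– over F/+ (vertical axis) against the epidermal level (horizontal axis, log2 relative to the array median) with median centring, loess and the authors' deposited table; blue points are members, red triangles the 50 probes left out, grey points all others, and dotted lines mark 2-fold. The bright probes lie above 0 with median centring and around or below 0 in the authors' deposited table.

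The epidermal ratios of the members spread more widely than those of the array. After loess their SD was 0.39, against 0.29 for all probes and a spot SD of 0.079. In the dermis the SDs were 0.21 for members and 0.20 for all probes, with a spot SD of 0.050. These epidermal values are truncated, because the rule removed the probes with the largest ratios. A wider spread in the brighter layer was not particular to the members. Probes restricted to the dermis by the mirrored rule had a dermal loess SD of 0.29.

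The lowest epidermal ratio was that of A_51_P305140. It read 17459 in F/+ and 5535 in F/– epidermis, and 669 and 459 in dermis. Its epidermal log2 ratio was -0.93 with median centring, -1.12 with loess and -1.10 in the authors' deposited table, beside 0.068, 0.023 and 0.035 in the dermis. The direction in epidermis was the same in all 3, and both dermal channels were near each other once their medians were aligned.

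A_51_P201884, A_51_P243418 and A_51_P520306 were also lower in F/– epidermis with every normalization. A_51_P201884 read 1953 and 631 in epidermis, a log2 ratio of -0.91 with median centring and -0.88 with loess. A_51_P243418 read 891 and 297, a ratio of -0.86 and -0.80. A_51_P520306 read 2296 and 778, a ratio of -0.84 and -0.82. In the authors' deposited table these 3 probes had -0.93, -0.89 and -0.87.

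The 4 highest epidermal ratios with median centring were less stable. All 4 probes were in the brightest 2% of the epidermis array, and the 4 lowest were not, so direction and brightness are mixed here. The member highest with loess and in the authors' deposited table, A_51_P445805, was not in that 2% and stayed high, with 0.90, 0.81 and 0.78. A_51_P269721 read 17676 in F/+ and 21352 in F/– epidermis and 1254 and 667 in dermis, an epidermal log2 ratio of 0.997 with median centring, 0.68 with loess and 0.25 in the authors' deposited table. A_51_P105385 read 29015 and 34182 in epidermis, with ratios of 0.96, 0.56 and 0.071. A_51_P401907 read 36693 and 43184, with 0.96, 0.52 and -0.27, so that its direction flipped. A_51_P392261 read 34814 and 40913, and flipped as well, with 0.96, 0.52 and -0.20.

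The 15 members that were 64-fold or more brighter in epidermis mostly had epidermal ratios below 0. By loess this majority depends on the exclusion, while in the authors' deposited table it was also seen before the exclusion. Of these 15, 12 were below 0 by loess (median -0.39) and 12 in the authors' deposited table (median -0.60). The rule had removed 10 of the 25 probes in this class, all 10 of them higher in F/– and all in the brightest 2% of the epidermis array. Over all 25 probes the median was 0.43 with median centring, 0.078 with loess, where 12 were below 0, and -0.28 in the authors' deposited table, where 20 were below 0.

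**Figure D4:**
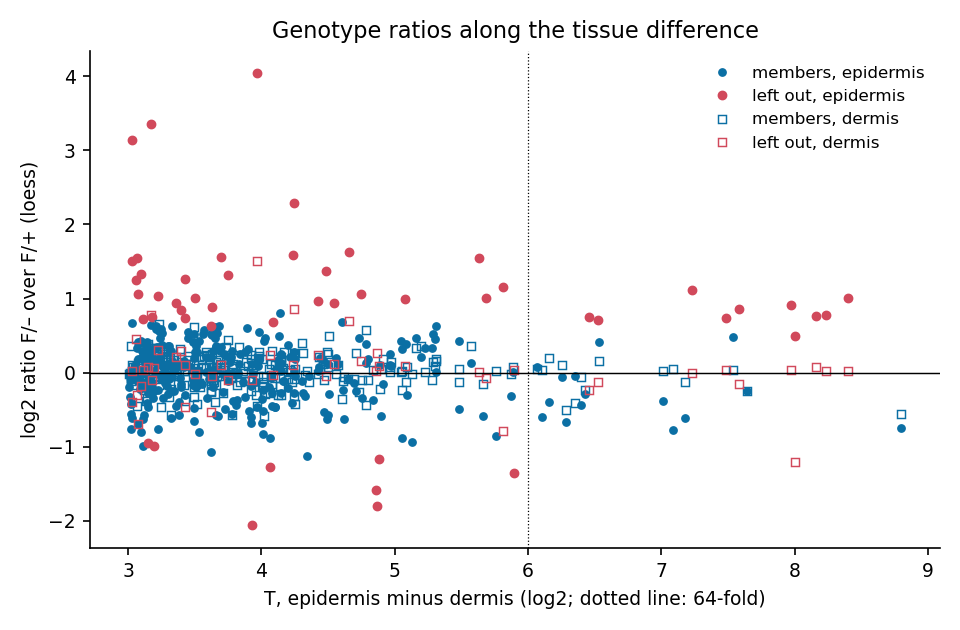
Loess log2 ratio of F/– over F/+ (vertical axis) against T (horizontal axis, log2) for the 335 probes with T of 3 or more; filled circles are epidermal and open squares dermal ratios, blue for members and red for the 50 probes left out, and the dotted line marks 64-fold. Right of that line the 10 red circles left out all lie above 0, while 12 of the 15 blue circles lie below it.

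The 50 probes left out were mostly higher in F/–, 42 against 8. The same majority was seen over the whole array, where 320 probes were 2-fold higher and 87 lower with median centring. Of the 42, 32 were in the brightest 2% of the epidermis array, 23 were past 2-fold by loess and 9 in the authors' deposited table. Of the 8 lower probes, 6 were past 2-fold by loess, and all 6 with a value in the authors' deposited table were past it there. The largest ratio was that of A_51_P435588, which read 1944 in F/+ and 21670 in F/– epidermis and 328 and 690 in dermis. Its epidermal log2 ratio was 4.2 with median centring and 3.44 in the authors' deposited table, and its T was 2.71 within F/+ and 5.22 within F/–. A_51_P484261 read 8304 and 65505 in epidermis, the latter at the scanner's upper limit.

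A_51_P126275 read 2368 in F/+ and 13852 in F/– epidermis, and 959 and 670 in dermis. Its dermal ratio was 0.096, while its epidermal ratio was 3.27 with median centring and 2.69 in the authors' deposited table. A_51_P508530 had epidermal ratios of 2.47 and 1.82 and a dermal ratio of 0.97. The probe furthest the other way, A_51_P453909, read 10598 and 1590 in epidermis and 396 and 239 in dermis, with an epidermal ratio of -2.01 and -2.07. A_51_P495269 read 27070 and 65498 in epidermis, the latter also at the upper limit, and its ratio fell from 2.00 with median centring to 0.12 in the authors' deposited table.

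In the dermis, whose genotype ratio the rule did not use directly, no member was past 2-fold in either direction. Among the 50 probes left out for their epidermal ratio, 1 was 2-fold higher in dermis and 1 lower. These 2 counts were the same with median centring, with loess and in the authors' deposited table. The absence of such members thus depends on the exclusion. Of all probes, 0.68% were 2-fold higher and 0.0575% lower. Loess also put 0 members past 2-fold (background 0.235% higher and 0.0815% lower), as did the authors' deposited table (0.0727% and 0.0582%). The median dermal log2 ratio was 0.057 with median centring, beside 0.044 for all probes, 0.021 with loess, where 159 of 285 members were above 0, and 0.034 in the authors' deposited table. At 1.5-fold, 7 members were higher (2.46%, background 5.06%) and 4 lower (1.4%, background 0.786%). The background of 5.06% includes probes at the floor in both dyes, which pass 1.5-fold upward by construction (ratio 0.61). They were not counted apart over all probes, so the 2 shares are not directly comparable. With loess these counts were 2 (background 0.57%) and 0 (0.69%), and in the authors' deposited table they were 2 (0.344%) and 3 (1.08%).

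Of the 7 members higher in F/– dermis at 1.5-fold, 2 were at the floor in both dyes, where the ratio is 0.61 by construction, namely A_51_P428115 and A_51_P468196. The other 5 had measured signals. A_51_P105385 read 3490 in F/+ and 4216 in F/– dermis, a log2 ratio of 0.88 with median centring, 0.65 with loess and 0.65 in the authors' deposited table. A_51_P401907 read 3723 and 4407, with 0.86, 0.62 and 0.61. A_51_P338803 read 1683 and 1813, with 0.72, 0.57 and 0.55. The dermal direction of these probes held with every normalization.

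A_51_P324838 read 2472 and 2526 in dermis, with a ratio of 0.64 with median centring and 0.46 with loess, and A_51_P507669 read 1306 and 1313, with 0.62 and 0.49. The median signal of all probe spots on this array was 508 in Cy3 and 332 in Cy5, so nearly equal signals give a ratio above 0. The probes A_51_P105385 and A_51_P401907 were also among the 4 highest in epidermis with median centring.

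The members lowest in F/– dermis were dim there. A_51_P248986, with the dermal signals of 161 and 53.8 given above, had a ratio of -0.97 with median centring, -0.56 with loess and -0.79 in the authors' deposited table. A_51_P230600 read 163 and 58.7 in dermis, with -0.86, -0.51 and -0.65, and 10348 and 4290 in epidermis. A_51_P182975 read 221 and 80.4 in dermis, with -0.85, -0.57 and -0.70, and 2488 and 1025 in epidermis. A_51_P201884 read 115 and 49.8, the latter at the floor, so its ratio of -0.59 is an upper bound. All 4 were lower in F/– in both layers.

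Across members the epidermal and dermal genotype ratios were weakly related. Pearson's r was 0.30 and Spearman's rho 0.25 with median centring, 0.18 and 0.17 with loess, and 0.22 and 0.19 in the authors' deposited table (285, 285 and 280 probes). The probes share 2 arrays and the same dye orientation, and the epidermal side is truncated by the rule. With median centring both ratios also rose with the level of the probe (rho 0.33 in epidermis, 0.39 in dermis). With loess these values were 0.066 and 0.16, and in the authors' deposited table -0.30 and 0.13. How far this trend enters the relation of the 2 ratios was not tested.

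**Figure D5:**
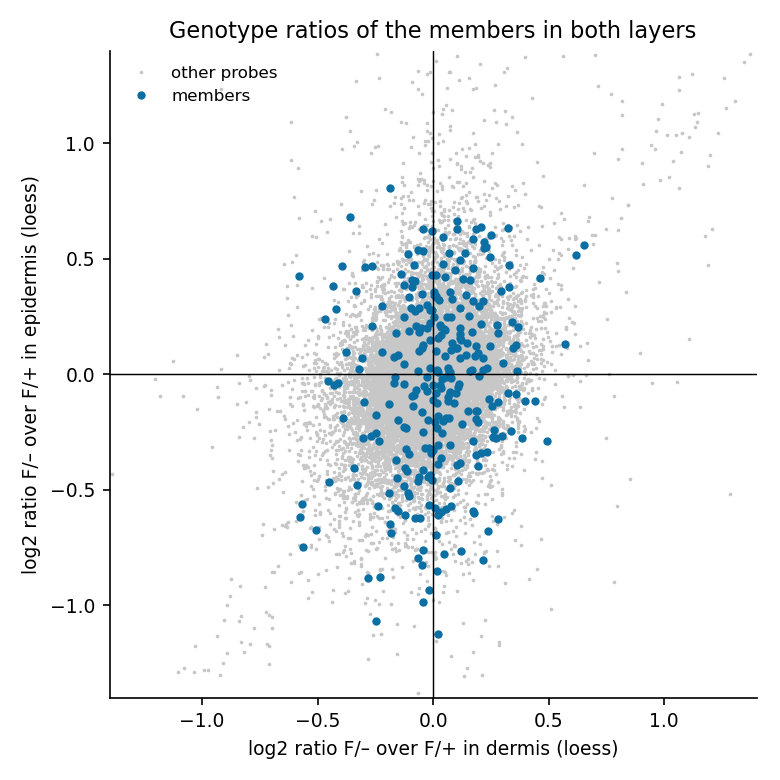
Loess log2 ratios of F/– over F/+ in epidermis (vertical axis) and dermis (horizontal axis); blue points are the 285 members, grey points other probes within the axis limits. The members spread further along the epidermal axis, with an SD of 0.39, than along the dermal axis, with an SD of 0.21.

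The epidermal ratio minus the dermal ratio had a median of 0.077 over the members. It reached 2-fold for 5 members upward and 1 downward, against 1.5% and 0.441% of all probes. At 1.5-fold the counts were 33 and 16, against 5.37% and 3.27%. With loess the 2-fold counts were 2 and 2, against 0.839% and 0.283% of all probes. In the authors' deposited table they were 0 and 8, against 0.696% and 0.457%. The widest difference was that of A_51_P269721, whose tissue difference was 15.5-fold in F/+ and 38.1-fold in F/–. For A_51_P350976 it was 10.5-fold and 24.9-fold, from signals of 22406 and 23087 in epidermis and 2341 and 1104 in dermis.

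The member printed 10 times on each array, A_51_P284125, gives the spread between spots for a member. Its signals were 18278 ± 981 and 12177 ± 693 in F/+ and F/– epidermis and 1866 ± 148 and 1157 ± 89.3 in dermis (SD, n = 10 spots of 1 array). Its T was 3.54 ± 0.12, its epidermal ratio 0.14 ± 0.056 and its dermal ratio -0.077 ± 0.038. The epidermal ratio turned to -0.13 with loess and -0.40 in the authors' deposited table, shifts larger than the spread between its spots.

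Probes restricted to the dermis by the same rule with both tissues exchanged numbered 317. Their dermal loess ratio had a median of -0.14, with 224 of 317 below 0, and in the authors' deposited table it was -0.17, with 235 of 315 below 0. With median centring it was 0.050, with 178 of 317 above 0, so the direction flips with the normalization here too.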

How the data were processed

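Cy3- and Cy5-labelled cRNA was hybridized together on each of 2 arrays, per the labels' protocols. The authors deposited 4 scanner files, 1 dye of 1 array each, with mean pixel intensity and local background of 22575 spots, not subtracted or normalized per the file headers. They also deposited a table of 1 value per feature. Its scale is not stated and was inferred. Regressed on the log2 ratio of background-subtracted signals (minimum 1) within 10 classes of intensity, the deposited values had slopes of 0.296 to 0.305 (epidermis) and 0.287 to 0.301 (dermis) in the lower 9 classes, where log10 ratios give 0.301. This signal definition was the third tried. Unsubtracted signals gave 0.291 to 0.459 over both arrays and signals with a minimum of 50 gave -0.0072 to 0.307. In the brightest class the slope was 0.13 (epidermis) and 0.11 (dermis) with each definition, so the scale was not borne out there, and 168 of the 285 members had epidermal levels in the brightest 10% of all probes. The authors' normalization and filter are not given in the sources used here. The deposited log10 values were converted to log2.

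Mean signal minus the background median was set to at least 50, taken to log2, centred on the median of the 21318 probe spots of each file and averaged over spots of a probe. Loess ratios (span 0.3, after normexp with offset 50) came from limma 3.58.1 in R 4.3.3, other values from Python 3.11.15 with numpy 2.4.6 and pandas 2.3.3, tested on simulated data. A call means past 2-fold, or 1.5-fold where stated. Negative controls were 162 spots, and signals of 65000 or more counted as the upper limit.

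Named probes are the 6 with the highest T, 4 just inside and 4 just outside its limit, the 4 highest and 4 lowest dermal ratios among members above the negative controls, the 4 highest and 4 lowest epidermal ratios, the 4 with the widest difference between genotypes in T, members printed 4 or more times, and the 6 probes left out with the largest ratios. A_51_P468196, A_51_P507669 and A_51_P326439 were named after their values were seen. The members and lists were chosen with earlier results of these data known. Gene lists and marker lists could not be applied, since 0 probes matched the gene table. Alternatives changed the floor, background correction, scaling, ratio source, limits and exclusion.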

Additional observations from a re-analysis of the deposited data

Results flagged for a closer look

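In 6 members the epidermal and dermal genotype ratios differed from each other by 2-fold or more, and ran in opposite directions. With median centring these were 5 of the 285 members upward and 1 downward, against 1.5% and 0.441% of all probes. The members thus passed 2-fold at a rate near that of the whole array. The opposite directions follow from the size of the difference, because no member had a ratio of 2-fold or more in either layer. The difference was not tested, because there is 1 array per tissue. The epidermal minus dermal log2 ratio was 1.30 for A_51_P269721, 1.24 for A_51_P350976, 1.13 for A_51_P445805, 1.06 for A_51_P225902 and 1.02 for A_51_P326439, all higher in F/– epidermis and lower in F/– dermis with median centring. For A_51_P305140 it was -1, with a lower level in F/– epidermis.

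With loess the epidermal ratios of the 5 probes were 0.68, 0.43, 0.81, 0.38 and 0.47, in the same order, and in the authors' deposited table they were 0.25, -0.0038, 0.78, 0.060 and 0.14. Their dermal loess ratios were -0.36, -0.58, -0.18, -0.43 and -0.39. For A_51_P305140 the loess ratios were -1.12 and 0.023. Opposite signs therefore held in all 3 sources for each of the 6 except A_51_P350976, whose epidermal value in the authors' deposited table was just below 0. For A_51_P305140, however, the dermal ratio was near 0 in each source (0.068, 0.023 and 0.035). The dermal spot SD was 0.064 with median centring and 0.050 with loess, so its dermal sign carries little weight. The epidermal spot SD was 0.10 with median centring and 0.079 with loess. The epidermal value of A_51_P225902 in the authors' deposited table, 0.060, was smaller than both, so its sign there carries little weight too.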

How the results depend on the processing

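No paired analysis was possible because there is 1 array per tissue, and no replicate could be left out. Shifts of medians were judged against the SD between spots of one array, which is technical. That SD describes a single probe and does not measure the uncertainty of a median over the members. With other floors, background correction, pixel summary, scaling or source of the excluding ratio, the number of members was 239 (floor of 200) to 311, the exclusions by loess (304) and by the authors' table (311) having been chosen after seeing the data. It was 791 at T of 2, 104 at T of 4 and 335 without the exclusion. The median tissue difference followed its limit, with 2.69 (F/+) and 2.71 (F/–) at T of 2 and 4.6 and 4.67 at T of 4.

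The epidermal median of 0.16 changed sign to -0.016 with quantile normalization, -0.011 with loess, -0.13 in the authors' deposited table and -0.11 with the exclusion by that table, and was 0.019 with the exclusion by loess. Members 2-fold lower numbered 2 by loess (0.302% of all probes) and 5 in the authors' table (0.494%), against a 0 that the rule fixes. Without the exclusion 42 were higher and 8 lower (1.53% and 0.417% of all probes), which are the probes the rule removes. At 1.5-fold, with the exclusion, 47 were higher and 15 lower (9.35% and 2.15% of all probes). The 9.35% includes probes at the floor in both dyes.

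The dermal median rose from 0.057 to 0.17 with the floor of 200. Members 2-fold lower in dermis became 1 with normexp, with quantile normalization, with either other exclusion and without the exclusion, which also gave 1 higher. With median centring, 0.68% of all probes were 2-fold higher in dermis and 0.0575% lower. At 1.5-fold 7 members were higher and 4 lower (5.06% and 0.786% of all probes). The 5.06% includes probes at the floor in both dyes.

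The median of the epidermal minus dermal ratio, 0.077, turned to -0.034 with quantile normalization, -0.050 with loess, -0.15 in the authors' table and -0.13 with the exclusion by it. Its 5 higher and 1 lower members became 2 and 5 (quantile), 2 and 2 (loess), 0 and 8 (authors' table), 0 and 6 (exclusion by it), 33 and 16 (1.5-fold) and 0 and 0 (3-fold). Those lower became 6 with the floor of 200 and at T of 2, and 3 with the exclusion by loess, and those higher 3 without saturated or brightest probes. Of all probes, 1.5% were 2-fold higher and 0.441% lower with median centring, and 0.839% and 0.283% with loess. The shares were 0.696% and 0.457% in the authors' table, and 5.37% and 3.27% at 1.5-fold with median centring.

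Of 684 alternative values of named probes, 442 moved by less than the spot SD, 242 by more. Dim dermal signals limit T and the dermal ratio of members near the floor.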
